A study of Mus musculus with 4 samples.

Results

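The genes described here encode the T-cell receptor, the CD3 and zeta chains that carry its signal, and the kinases, adaptors, effector enzymes and inhibitors that act directly behind it. The 38 members were taken by symbol from a list of these components and matched to gene identifiers, with the version of the identifier ignored. All 38 were found among the 50600 genes listed in each count table. They were measured by RNA-seq in primary mouse T-helper 17 (Th17) cells, the CD4 T cells that make interleukin-17.

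There was 1 group of 4 libraries, called replicates 1 to 4 after the biological replicate numbers in the labels. All came from cells of strain C57BL/6NJ, and a linked protocol covers the differentiation of CD4 T cells. No other genotype, treatment or time was sampled, and the labels record neither age nor sex. The 4 biosamples carry the same donor identifier, and the labels do not state whether they derive from different mice. Spread between libraries, and any p built on it, may therefore be partly technical.

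The alpha and beta chains of the T-cell receptor bind peptide on MHC molecules but have almost no cytoplasmic part. Signalling depends on the CD3 gamma, delta and epsilon chains and the zeta chain, whose tails carry paired tyrosines called immunoreceptor tyrosine-based activation motifs (ITAMs). The kinase Lck phosphorylates these tyrosines, Zap70 docks on them and phosphorylates the adaptors Lat and Slp76, and the complex that forms recruits Plcg1 and Vav1, while Csk, phosphatases and ubiquitin ligases hold the pathway down.

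Libraries held 24696730 to 37025016 fragments assigned to genes, and the members together held 765 (Trdc) to 217600 (Ptprc) fragments per gene over the 4 libraries. Levels are in TPM, the counts divided by the gene's summed exon length and rescaled so that every library has an equal total. Errors are SD over the 4 libraries throughout. Replicates 1 and 2 stood apart from 3 and 4 in genes of the sex chromosomes: Xist was at 186 and 161 TPM against 0.687 and 0.721, and the Y-linked Ddx3y at 0.442 and 0.446 against 88.6 and 83.2. The 4 libraries therefore did not all come from 1 animal, and the source within each of these pairs is not known. No pair of libraries agreed within sampling noise (chi-square over degrees of freedom of 3.41 to 7.95, and 3.40 to 4.55 without chromosomes X and Y). Over replicates 1 and 2 alone, the mean levels of the 38 members lay between 0.951 and 1.05 times their means over all 4 libraries. Over replicates 3 and 4 alone they lay between 0.950 and 1.05 times those means. Each pair is part of the mean it is set against, so the largest differences between the pairs are wider than these ratios.

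Every member was expressed, and most were abundant. All 38 reached 1 TPM in every library, against 54% of the 20704 genes with a fragment. At 10 TPM the count was 36 of 38, against 37.4% of those genes, and at 100 TPM it was 22 of 38, against 9.39%. Among the 13760 protein-coding genes with a fragment, the corresponding shares were 70.9%, 53.6% and 13.8%. The median level of the members was 131 TPM, against 2.54 TPM over all genes with a fragment and 26.0 TPM over genes at 1 TPM in every library. Together the members made up 1.18% of all TPM, or 11828 ± 234 TPM, and the sum was highest in replicate 1, at 12177 TPM, with 11739, 11704 and 11692 TPM in the others. The members were chosen for known roles in T cells, so these shares are descriptions and carry no test.

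**Figure D1:**
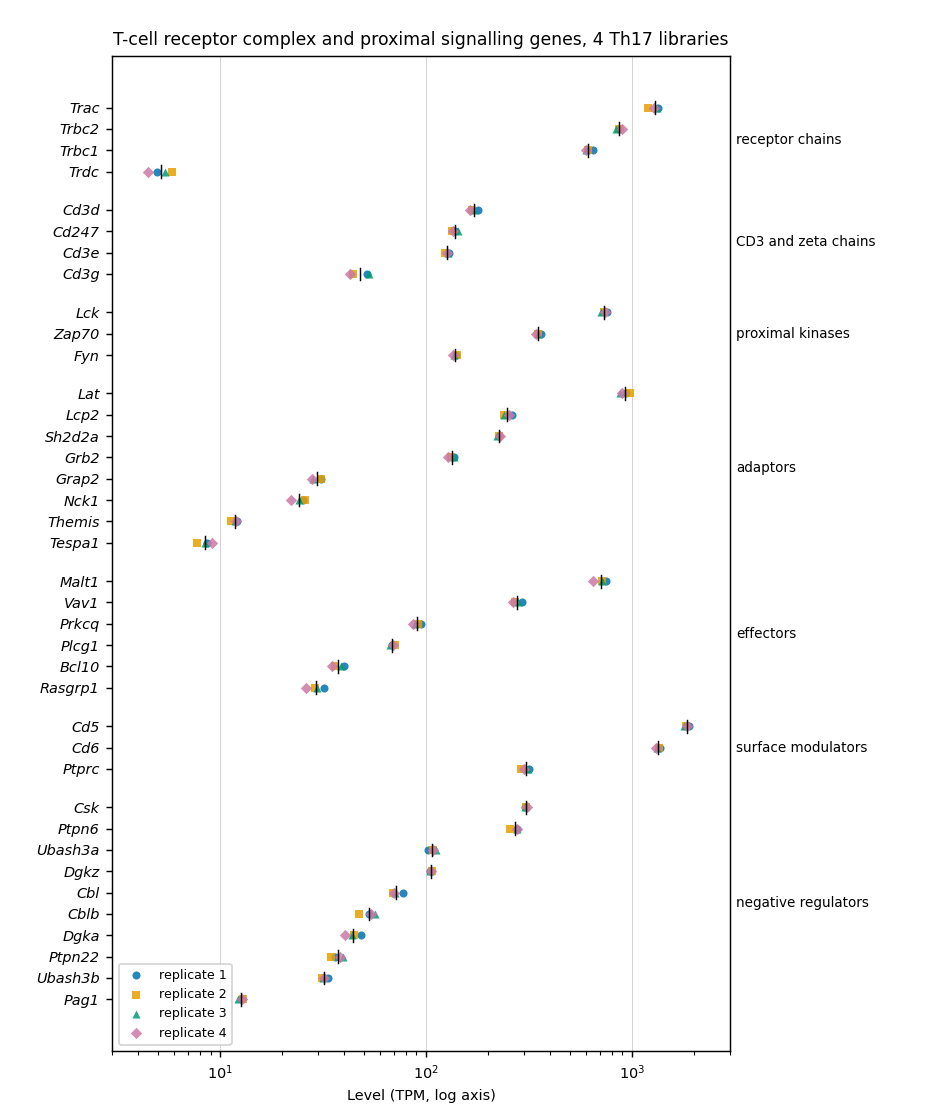
Level of each of the 38 members in the 4 Th17 libraries, in TPM on a log axis, grouped by role; symbols are single libraries and the vertical bar is their mean. Levels run from Trdc at 5.17 TPM to Cd5 at 1843 TPM, and within a gene the 4 libraries lie close together compared with the distances between genes.

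The receptor constant chains counted were the alpha-beta pair, with little delta and almost no gamma from the gamma genes examined. Trac (ENSMUSG00000076928.5, chr14:54220521-54224206, plus strand, mm10), the only constant gene of the alpha chain, was at 1342, 1204, 1326 and 1284 TPM in replicates 1 to 4. Replicate 2 was the lowest and the other 3 lay close together, for a mean of 1289 ± 61.9 TPM. Trbc1 and Trbc2, alternative constant genes of the beta chain, lie 6848 bases apart on chromosome 6, and a mature beta chain uses either of them. Trbc1 (ENSMUSG00000076490.6, chr6:41538218-41539881, plus strand) was at 646.3, 615.9, 601.1 and 598.4 TPM, and Trbc2 (ENSMUSG00000076498.2, chr6:41546730-41548352, plus strand) at 862.9, 870.2, 835.5 and 896.7 TPM. The ranges did not overlap: the lowest Trbc2 library was above the highest Trbc1 library. Trbc2 made up 57.2%, 58.6%, 58.2% and 60.0% of beta constant-chain TPM, a mean of 58.5% ± 1.16, and the ratio of Trbc2 to Trbc1 was 1.41 ± 0.068. Trbc1 and Trbc2 together were at 1482 ± 31.6 TPM, above Trac in each of the 4 libraries.

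The beta constant genes are near-identical copies, so their sequences set how well counts can be assigned to one or the other. Over 518 coding bases they differ at 23, an identity of 95.6%. Only 1 of these differences is in the 375 coding bases of the first exon, and the longest identical stretch covers coding bases 1 to 259. The other 22 fall in the last 143 coding bases, which encode the connecting peptide's end, the membrane span and the short tail. The counted exons, 749 bases in Trbc1 and 692 in Trbc2, also hold noncoding bases, which were not compared base by base. Those 143 coding bases (376 to 518, GENCODE M21 transcripts on mm10) are shown here because they hold 22 of the 23 coding differences. Capitals mark the bases that differ.
Trbc1: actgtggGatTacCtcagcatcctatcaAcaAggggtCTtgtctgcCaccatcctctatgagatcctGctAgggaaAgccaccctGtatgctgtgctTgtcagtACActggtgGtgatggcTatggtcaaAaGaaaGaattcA
Trbc2: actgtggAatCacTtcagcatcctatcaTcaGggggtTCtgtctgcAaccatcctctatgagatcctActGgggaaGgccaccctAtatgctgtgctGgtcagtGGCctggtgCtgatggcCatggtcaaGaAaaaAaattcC

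Of the 50-base words of each gene, 40.5% in Trbc1 and 44.0% in Trbc2 also occur in another gene, 283 words in each. The file headers do not record how fragments that align to more than 1 place were counted. If they were left out, as is the counting program's default, both genes are undercounted. With the exon length reduced to the part without shared words, Trbc1 was at 1035 TPM and Trbc2 at 1547 TPM, and Trbc2 was above Trbc1 in every library under each of the 4 length choices tried.

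Trdc, the delta constant gene, lies upstream of Trac inside the alpha-delta locus (ENSMUSG00000104876.1, chr14:54142851-54148868, plus strand) and was the lowest of all 38 members. It was at 4.943, 5.825, 5.431 and 4.482 TPM, a mean of 5.17 ± 0.584, and its range over libraries overlapped that of no other member. Trac was higher in all 4 libraries, at 252 ± 35.0 times the level of Trdc. The gamma constant genes examined, whose chains would pair with delta, were nearly empty. Tcrg-C1 had 1 fragment in all, Tcrg-C4 had 4, and Tcrg-C2 had none, so that a level of up to 0.448 TPM (3 fragments in the shallowest library, counting error only) would go unseen. In bulk RNA, fewer cells of a type and less RNA per cell cannot be told apart. Summed over 6 gamma delta T-cell markers, the level was 5.09 to 6.20 TPM across libraries, nearly all of it Trdc, with the regulator gene Sox13 at 0.402 TPM and 1 fragment in all for Zbtb16.

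The CD3 and zeta chains were expressed at intermediate levels, and Cd3g was the lowest of them. Cd3d (ENSMUSG00000032094.8, chr9:44981786-44987339, plus strand), the delta chain, was at 179.4, 167.2, 171.9 and 163.7 TPM. Cd3e (ENSMUSG00000032093.7, chr9:44998740-45009627, minus strand), the epsilon chain that enters both CD3 dimers, was at 129.5, 124.3, 128.5 and 126.9 TPM. Cd3g (ENSMUSG00000002033.14, chr9:44969572-44980431, minus strand), the gamma chain, was at 51.81, 44.08, 53.11 and 43.01 TPM. Replicates 1 and 3 were the highest and 2 and 4 the lowest in Cd3g, while Cd3e was nearly level across libraries. Cd247 (ENSMUSG00000005763.15, chr1:165788681-165877277, plus strand), the zeta chain, was at 138.7, 134.3, 142.7 and 136.1 TPM. Means were 171 ± 6.82 TPM for Cd3d, 138 ± 3.65 for Cd247, 127 ± 2.24 for Cd3e and 48.0 ± 5.19 for Cd3g. Each was below Trac and both beta constant genes in every library.

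Cd3g and Cd3d are neighbours transcribed away from each other, with 1354 bases between them, and Cd3e lies 11400 bases beyond the end of Cd3d. The pair that starts so close together differed in level, with Cd3d at 3.57 ± 0.275 times Cd3g and higher in all 4 libraries. Cd3e was at 0.747 ± 0.022 times Cd3d, and lower in all 4. That order depended on the length by which counts were divided. The summed exons of Cd3e are 4080 bases long, 2.79 times its longest coding transcript within the counted exons, and those of Cd3g are 3269 bases, 3.20 times, whereas for Cd3d the ratio is 1.12 and for Cd247 1.80. Only 1 of the 4 annotated Cd3e transcripts and 2 of the 3 Cd3g transcripts are coding. Divided by the longest coding transcript, an alternative chosen after seeing the data, Cd3e was the highest of the 4 at 242 ± 4.18 TPM, Cd247 followed at 170 ± 4.45, then Cd3d at 131 ± 5.17, and Cd3g was still the lowest at 105 ± 11.3 TPM. Cd3e minus Cd3d then changed from -0.42 ± 0.04 to 0.89 ± 0.04 in log2(TPM + 1), and with the longest annotated transcript it was 0.09. The excess of Cd3d over Cd3g fell to 1.26 ± 0.097 times but stayed in the same direction in every library. Levels by the coding or the longest annotated transcript were rescaled to an equal total, so genes of unchanged length also shift. Trac, at 935 bases by either, went from 1289 TPM to 879 TPM by coding length. The counts per gene do not say which transcripts were present, so which length is right was not tested.

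**Figure D2:**
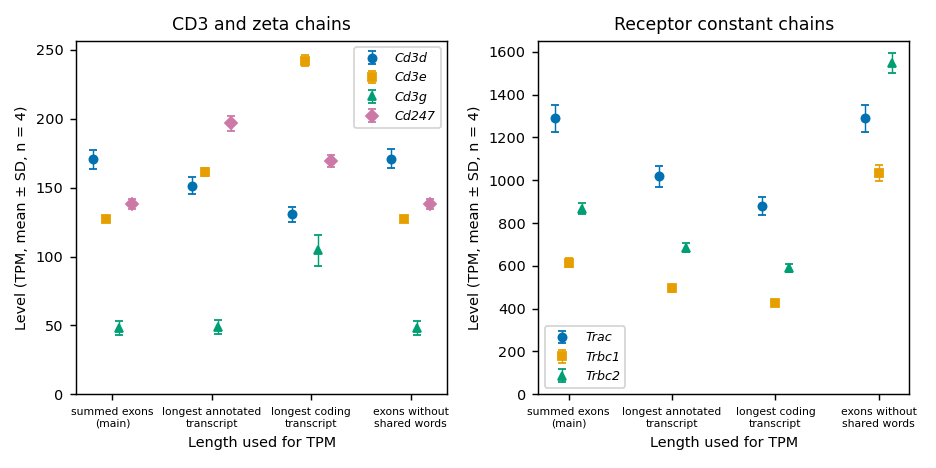
Level of the CD3 and zeta chains (left) and of the abundant receptor constant chains (right), in TPM, when counts are divided by each of 4 lengths; points are means and bars SD over the 4 libraries. Cd3e moves from 127 TPM with the summed exons to 242 TPM with the longest coding transcript, while Trbc2 stays above Trbc1 under every length.

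The CD3 and zeta genes also differ in how many ITAMs they encode, and the ITAM sequences are shown because the kinase results below concern the enzymes that act on them. The pattern searched in the coding sequence was a tyrosine, any 2 residues, a leucine or isoleucine, then 6 to 8 residues and the same 4 residues again. It was found once in Cd3d, Cd3e and Cd3g. In Cd247, 1 of 6 complete coding transcripts held 3 copies and 5 held 2, and the 3 copies shown are from the former. Sequences run 5′ to 3′ on the coding strand (GENCODE M21), and capitals mark the codons of the paired tyrosines.
Cd3d: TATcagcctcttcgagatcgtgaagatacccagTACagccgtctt
Cd3e: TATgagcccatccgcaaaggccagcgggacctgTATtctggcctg
Cd3g: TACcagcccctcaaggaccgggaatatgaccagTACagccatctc
Cd247, first: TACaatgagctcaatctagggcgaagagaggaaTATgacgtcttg
Cd247, second: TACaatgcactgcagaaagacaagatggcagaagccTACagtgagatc
Cd247, last: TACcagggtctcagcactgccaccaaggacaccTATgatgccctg
All have 7 codons between the repeated parts of the pattern, except the second of Cd247, which has 8. Gene counts do not separate the Cd247 transcripts, so how many zeta transcripts carried the full set was not measured.

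Of the proximal kinases, Lck was far more abundant than Fyn, and Zap70 was abundant while its relative Syk was almost absent from the counts. Lck, the Src-family kinase bound to the CD4 coreceptor, was at 759.8, 733.7, 707.6 and 740.0 TPM (735 ± 21.5). Fyn, a Src-family kinase that also phosphorylates ITAMs, was at 140.0, 140.9, 136.3 and 135.8 TPM (138 ± 2.58). No library of Fyn came near the range of Lck, and Lck was at 5.32 ± 0.138 times Fyn. Zap70, which docks on phosphorylated ITAMs, was at 360.7, 348.6, 349.1 and 342.7 TPM, a mean of 350 ± 7.54. Syk, which takes that place in B cells and myeloid cells, had 4 fragments over all 4 libraries, all of them in replicate 1, against 40681 fragments for Zap70.

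Among the adaptors, Lat stood well above the others. Lat, the membrane scaffold phosphorylated by Zap70, was at 939.1, 978.5, 874.2 and 897.8 TPM (922 ± 46.0), with replicates 1 and 2 above 3 and 4. Lcp2, which encodes Slp76, was at 262.1, 240.0, 240.0 and 252.1 TPM (249 ± 10.7). Sh2d2a, which encodes the Lck-binding adaptor TSAd, was at 226 ± 3.86 TPM and Grb2, which links Lat to the Ras exchange factor Sos, at 134 ± 4.08 TPM. Grap2, which encodes Gads, the bridge between Lat and Slp76, was lower, at 30.95, 30.85, 28.26 and 27.83 TPM (29.5 ± 1.66), and replicates 1 and 2 were again the higher ones. Nck1, an adaptor to the actin machinery, was at 24.3 ± 1.66 TPM. Themis, which sets signal strength during thymic selection, was at 11.8 ± 0.337 TPM, and Tespa1, a thymocyte-expressed adaptor of the Lat complex, at 8.50 ± 0.606 TPM. These and Trdc were the 3 lowest members. Tespa1 shares 18.4% of its 50-base words with the gene 1700019D03Rik, so its level is uncertain.

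Of the relatives of these adaptors, those that serve other blood lineages were low, and Grap was not. Blnk, the Slp76 counterpart of B cells, had 1 fragment in all, against 43181 for Lcp2. Lat2, the Lat counterpart of B and myeloid cells, was at 0.897 TPM, and Lat was at 1131 ± 413 times its level. Themis2, which B cells and macrophages use, had 15 fragments in all (0.115 TPM). Grap, a Grb2-family adaptor of lymphocytes, was at 108 ± 4.99 TPM, 3.69 ± 0.302 times the level of Grap2, and was the higher in each of the 4 libraries. Nck1 was above Nck2 (7.76 TPM), at 3.14 ± 0.260 times its level and 2.09 ± 0.173 times by coding length.

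Of the effectors, Vav1 and the protease Malt1 were the most abundant. Malt1, which cleaves inhibitors of NF-kB signalling in a complex with Bcl10, was at 750.4, 713.6, 713.5 and 647.3 TPM (706 ± 42.9). Replicate 4 was the lowest and replicate 1 the highest. Bcl10, its partner, was at 37.6 ± 2.28 TPM. Vav1, the Rac exchange factor of blood cells, was at 292.0, 269.5, 280.0 and 264.8 TPM (277 ± 12.1). Prkcq, which encodes the T-cell protein kinase C theta, was at 90.1 ± 3.61 TPM, and Plcg1, the phospholipase that makes diacylglycerol and inositol trisphosphate, at 68.7 ± 1.69 TPM. Rasgrp1, the Ras exchange factor that responds to diacylglycerol, was at 32.02, 28.95, 29.75 and 26.30 TPM (29.3 ± 2.36), with replicate 1 highest and replicate 4 lowest, as in Malt1.

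Vav1, Plcg1, Prkcq and Rasgrp1 each exceeded the relatives they were compared with in all 4 libraries. Vav1 was at 22.2 ± 1.16 times Vav2 (12.5 TPM) and 73.6 ± 12.8 times Vav3 (3.82 TPM). Plcg1 was at 9.77 ± 1.36 times Plcg2 (7.15 TPM), the enzyme of B cells, and 15.0 ± 2.09 times by coding length. Prkcq was at 5.38 ± 0.292 times Prkcb (16.8 TPM), and Rasgrp1 at 28.1 ± 6.45 times Rasgrp2 (1.07 TPM). The last ratio fell to 5.58 ± 1.28 when counts were divided by coding length, since the summed exons of Rasgrp2 are much longer than its coding transcript, and its direction did not change.

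Cd5 and Cd6, related scavenger-receptor surface proteins that bind signalling adaptors and can dampen the receptor, were the most abundant members by summed exon length. Cd5 (ENSMUSG00000024669.7, chr19:10718143-10738974, minus strand) was at 1903, 1828, 1792 and 1849 TPM (1843 ± 46.5). Cd6 (ENSMUSG00000024670.16, chr19:10789341-10830058, minus strand) was at 1374, 1351, 1326 and 1316 TPM (1342 ± 26.1). The genes are neighbours in the same orientation, 50366 bases apart, and Cd5 was at 1.37 ± 0.027 times Cd6 with no overlap between their libraries. With the longest annotated transcript as length both fell, Cd5 to 1009 TPM and Cd6 to 771 TPM, below Trac at 1019 TPM, and Cd6 also below Lat at 983 TPM. That transcript is longer than the counted exons in both, at 2989 against 2069 bases in Cd5 and 4683 against 3404 in Cd6. Part of that length could hold no counted fragment, so both levels are understated by it. Without shared words, Trbc2 was above Cd6. Ptprc, which encodes the phosphatase CD45 that activates Lck by removing its inhibitory phosphate, was at 317.4, 290.7, 313.9 and 298.9 TPM (305 ± 12.6). Its summed exons are 3.61 times as long as its longest coding transcript, and by that length it was at 751 ± 30.7 TPM.

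By summed exon length, the 10 negative regulators ranged from 12.6 to 305 TPM. They summed to 1041 ± 16.4 TPM, below the level of Cd6 alone in every library. That order reversed with the longest annotated transcript as length, by which Cd6 was at 771 TPM. That transcript of Cd6 exceeds its counted exons, so the reversal draws on an understated level of Cd6. Csk, the kinase that places the inhibitory phosphate on Lck, was the most abundant at 302.6, 305.7, 304.2 and 309.3 TPM, a mean of 305 ± 2.84. Its values lay within a narrow range, and its coefficient of variation of 0.929% was the lowest of the 38 members. Pag1, the membrane anchor that recruits Csk, was the lowest negative regulator at 12.6 ± 0.289 TPM. Ptpn22, a phosphatase that acts with Csk, was at 37.2 ± 2.32 TPM. Ptpn6, which encodes the phosphatase SHP-1, was at 276.6, 256.5, 276.5 and 276.6 TPM, so that replicate 2 stood below 3 nearly equal libraries.

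Pairs of related inhibitors were expressed unequally. Dgkz and Dgka, which convert diacylglycerol to phosphatidic acid and so limit Rasgrp1 and Prkcq, were at 106 ± 1.25 and 44.4 ± 3.06 TPM, and Dgkz was at 2.39 ± 0.178 times Dgka. Ubash3a and Ubash3b, which encode the Sts phosphatases that act on Zap70, were at 108 ± 4.14 and 32.1 ± 1.02 TPM, a ratio of 3.35 ± 0.220 that became 5.71 ± 0.374 by coding length. The longest annotated transcript of Ubash3a put it at 37.1 TPM instead. At 7635 bases that transcript exceeds the 3328 counted exon bases, so this level is understated. Cbl and Cblb, ubiquitin ligases that remove or silence receptor components, were the closest pair, at 71.7 ± 3.58 and 52.8 ± 4.02 TPM, with Cbl at 1.36 ± 0.107 times Cblb. Cblb was at 53.20, 47.28, 56.83 and 54.09 TPM, lowest in replicate 2. Csk was at 387 ± 18.8 times its relative Matk (0.791 TPM) and 255 ± 12.4 times by coding length. Ptpn6 was at 2.44 ± 0.066 times Ptpn11 (111 TPM), the broadly expressed phosphatase SHP-2, and Cd247 at 174 ± 32.1 times Fcer1g (0.813 TPM), the ITAM chain of Fc receptors.

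In all, 24 pairs of related genes were compared within each library as differences of log2(TPM + 1), a scale that understates differences for low genes. The first named was higher in all 4 libraries in 21 pairs and the second in 3 (Cd3e below Cd3d, Grap2 below Grap, and Dgka below Dgkz), and no pair was mixed. The exact two-sided sign-flip p was 0.13 for each pair and 0.13 after Benjamini-Hochberg adjustment over the 24. With 4 libraries this test cannot give a smaller value, and no pair could pass 0.05.

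**Figure D3:**
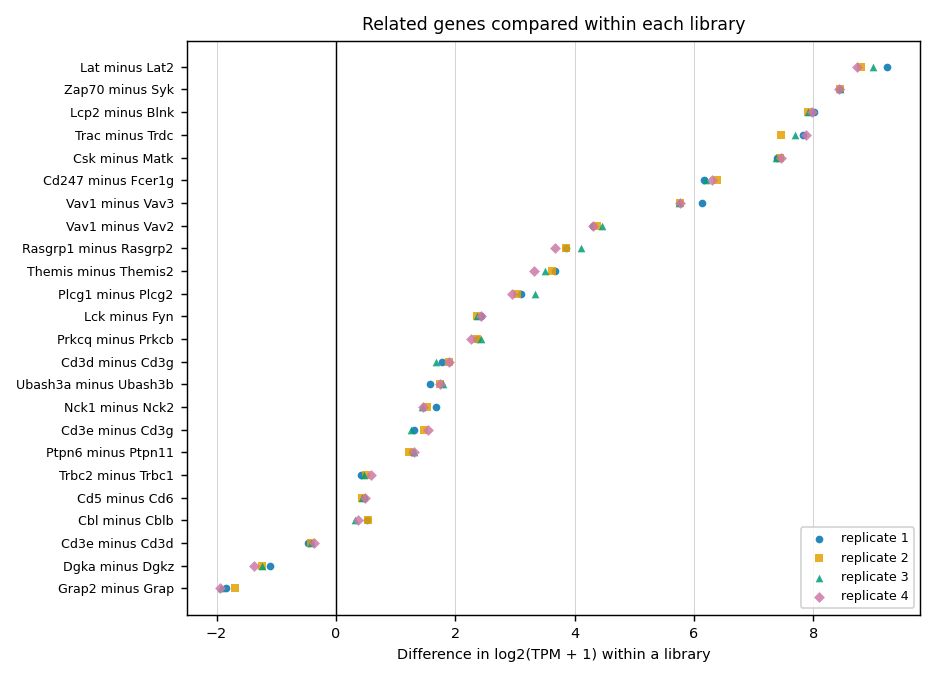
Difference in log2(TPM + 1) between the members of 24 pairs of related genes within each library; symbols are single libraries and the vertical line marks equal levels. In 21 pairs all 4 libraries lie above 0 and in 3 pairs all 4 lie below, from a mean of 8.94 for Lat minus Lat2 down to -1.85 for Grap2 minus Grap.

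Ordered by mean level, the members ran from Cd5, Cd6, Trac, Lat, Trbc2, Lck, Malt1, Trbc1 and Zap70 down to Nck1, Pag1, Themis, Tespa1 and Trdc. Of the 37 pairs of neighbours in this order, 21 had library ranges that did not overlap and 16 overlapped, among them Cd6 with Trac, Lat with Trbc2, Lck with Malt1, Csk with Ptprc, and Fyn with Cd247. By coding length, Lat was first at 1409 ± 70.3 TPM, ahead of Cd5 at 1258 ± 31.4 TPM, and 4 members moved by 5 places or more: Cd3e from 20 to 12, Ptprc from 11 to 5, Tespa1 from 37 to 32, and Grb2 from 19 to 24. That length raised 8 members by more than 1.5 times, which were these first 3, Cd3g, Lat, Themis (to 18.5 TPM), Bcl10 (to 59.98 TPM) and Ptpn22 (to 62.7 TPM). The longest annotated transcript did so for Ptprc, Tespa1, Themis, Ptpn22 and Bcl10, and lowered Cd5, Cd6, Malt1 (to 442 TPM), Grap2 (to 13.4 TPM) and Ubash3a by as much. In each gene so lowered, that transcript, taken from GENCODE M21, is longer than the counted exons of GENCODE vM13. Counts were thus divided by bases where none could be counted, so these lowered levels are understated. Part of the exons of Cd247 (3.87% of bases), Lat (2.71%) and Lck (0.854%) overlaps another gene on the same strand, where fragments cannot be assigned to one of them.

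By role and summed exon length, the surface modulators held the largest summed level at 3490 ± 71.5 TPM. The 4 receptor chains held 2776 ± 65.8 TPM. The 8 adaptors summed to 1605 ± 51.5, the 3 kinases to 1224 ± 27.8, the 6 effectors to 1209 ± 61.3 and the 4 CD3 and zeta chains to 484 ± 16.3 TPM. The sum of the CD3 and zeta chains was therefore below the level of Trac alone in every library. With the exon length without shared words, the receptor chains held a larger sum than the surface modulators. Trbc1 and Trbc2 rose under that length, while Cd5 and Cd6 did not change. By coding length the CD3 gamma, delta and epsilon chains together reached 477 ± 19.4 TPM, a sum that leaves out the zeta chain. Cd247 was at 170 ± 4.45 TPM and Trac at 879 ± 41.9 TPM by that length.

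The spread of the members between replicates was mostly a few percent of their level, and none passed the test of spread after adjustment. Their coefficients of variation in TPM ran from 0.929% (Csk) to 11.3% (Trdc), with a median of 3.93%. In edgeR's quasi-likelihood fit of all 11847 genes tested, none of the 38 members varied between replicates beyond genes of their abundance (adjusted p under 0.05), against 0.304% of all genes tested, or 36 genes, so the count of members is near that background. That count of genes was 15 without replicate 4. At an unadjusted p under 0.05, 4 members passed, against 5.69% of genes tested. These were Cblb, Cd3g, Malt1 and Lat, with adjusted p of 0.49, 0.54, 0.59 and 0.79 in the edgeR fit. By limma-trend, 0 members passed after adjustment, against 0.338% of genes tested, and 5 did before it.

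Cd3g and Cd3e, which lie at the same locus, had unlike SDs. Neither passed the test of spread after adjustment, and they were not tested against each other. The SD of log2 CPM was 0.146 for Cd3g, against a median of 0.0557 over tested genes within 0.25 log2 CPM of it, and 0.0148 for Cd3e, against 0.0377, the lowest of the 38 members. Lat, Malt1 and Cblb were at 0.0771, 0.0831 and 0.105, against 0.0350, 0.0352 and 0.0441 for genes of like abundance. The libraries that were high differed between these genes: replicates 1 and 3 in Cd3g, 1 and 2 in Lat, 1 in Malt1, and 3 in Cblb. Over the members the median SD was 0.0488 log2 CPM, against 0.0726 over all tested genes, and 25 of the 38 lay above the median of genes of like abundance. The median F of the test, the residual spread over that fitted for genes of like abundance, was 1.23 over the members and 0.804 over all tested genes.

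**Figure D4:**
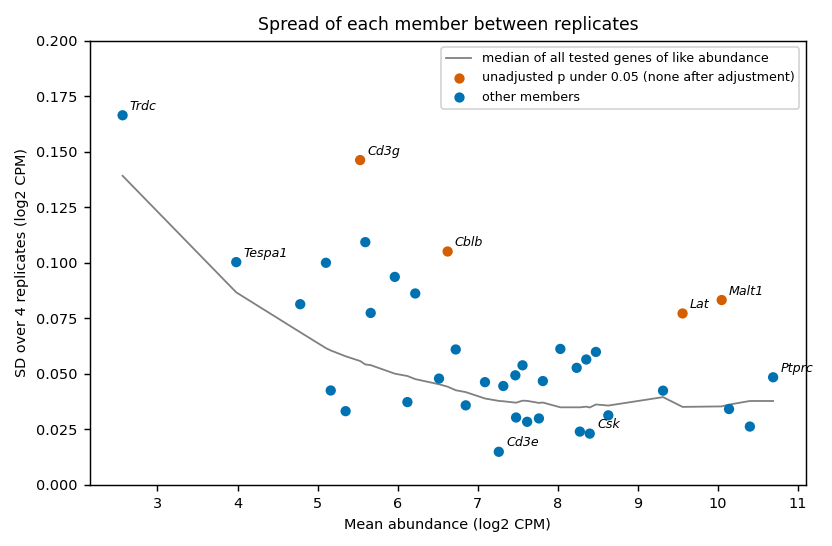
SD of log2 CPM over the 4 replicates against mean abundance for the 38 members; the line is the median SD of all tested genes of like abundance and orange points had an unadjusted p under 0.05 in the edgeR test. Cd3g at 0.146 lies farthest above the line among abundant members, Cd3e at 0.0148 is the lowest, and none of the 4 orange points passed after adjustment.

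Other genes of the receptor pathway, kept as a separate list of 40, were mostly expressed at lower levels. In every library 39 of them were at 1 TPM or more, 32 at 10 and 10 at 100, and the median level was 31.6 TPM. The highest were the GTPase gene Cdc42 at 569 TPM, the costimulatory receptor Cd28 at 323, the GTPase gene Rac2 at 291 and the coreceptor Cd4 at 237 ± 16.6 TPM. The exception was the adaptor Gab2, with 12 fragments in all (0.0475 TPM), under the 0.066 TPM that 3 fragments give in the shallowest library. In the edgeR test, 0 of the 39 that were tested varied after adjustment and 6 had an unadjusted p under 0.05. Of 25 relatives of the members, most of them known from other lineages, 7 were at 1 TPM or more throughout, 4 at 10 and 1 at 100, and the median was 0.783 TPM. The highest were Grap, Hcst at 26.5, Prkcb and Vav2, and Rasgrp3 and Tyrobp had no fragment. Genes of the immature receptor and of recombination, Ptcra, Rag1, Rag2 and Dntt, did not reach 1 TPM, and the highest was Dntt at 0.292 TPM.

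Markers were read as a check of the labelled cell type. All 10 Th17 markers reached 1 TPM in every library, with Irf4 at 1647, Il17f at 694, Batf at 594 and Il21 at 331 TPM, and the lowest was Il23r at 2.14 TPM. Il17f varied between replicates in the edgeR fit (adjusted p = 0.00785), from 589 to 759 TPM, and was the only one of the 10 to pass. None of 5 B-cell and none of 4 NK and innate lymphoid markers reached 1 TPM, and their summed levels were 0.280 to 0.893 and 0.760 to 1.03 TPM. Among 6 myeloid markers only Cd68 did, at 5.24 TPM (sum 3.98 to 6.38), and Lyz2 had no fragment. Of the CD8 genes, Cd8b1 was at 7.32 ± 1.16 TPM and Cd8a at 0.102 TPM (sum 6.00 to 8.74).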

How the data were processed

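Per the file headers, the deposited values are whole fragment counts per gene, made by the authors with featureCounts 1.4.6-p4 over exons of GENCODE vM13 with strand option 2 and both ends aligned. Alignment names carry the tag star2 with no version. The labels give mm10 and call the assay total RNA-seq, though the linked library protocol is named for polyadenylated RNA. The deposited exon length per gene gave TPM.

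Computed here: TPM (count over length, scaled to 1000000), its mean, SD and range over 4 libraries; an exact sign-flip test of 24 pairs (pseudocount 1); and a test of spread between replicates with edgeR 4.0.16 in R 4.3.3 (TMM, filterByExpr, intercept only, robust prior, upper tail of F, Benjamini-Hochberg over 11847 genes). On simulated counts for that test (11709 genes), 58% of genes with an added log2 SD of 0.25 and 84% with 0.5 were recovered. Of 144 calls, 2 were false. Spread was added only to genes with higher mean counts. The largest SD of a member was 0.166 log2 CPM (Trdc), so recovery at the members' own spread was not measured. Shared words of 50 bases were sought in GENCODE M21 transcripts, whose symbols matched 50376 of 50600 identifiers. Gene coordinates are of mm10 and follow the deposited exons of GENCODE vM13.

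Alternatives were other lengths, a rescaling without mitochondrial and ribosomal genes, a pseudocount of 0.1, other thresholds, DESeq2 1.42.0 size factors, other filters, no robust prior, limma 3.58.1, and each replicate left out. The text names all members, both genes of each pair, and the 4 highest and the lowest gene of each other list. Genes of those lists with no fragment or 1 fragment, and Il17a and Ccr6, were named in addition, after their values were seen. The members, lists and pairs were chosen with earlier results of these data known. Other tools were numpy 2.4.6, scipy 1.17.1, pandas 2.3.3, Biopython 1.88 and matplotlib 3.10.9, run in Python 3.11.15.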

Additional observations from a re-analysis of the deposited data

Results flagged for a closer look

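A single library stood far from the other 3 in 2 results, where the gap to its nearest neighbour took up nearly the whole range of the 4. Ptpn6 was at 256.5 TPM in replicate 2, against 276.5 to 276.6 TPM in the others, a gap of 0.996 of the range. Vav1 minus Vav3 was 6.14 in replicate 1, against 5.74 to 5.76 in the others on the log2(TPM + 1) scale, a gap of 0.942 of the range. Chance flags about 1 in 20 groups of this size, and 1 of 38 member levels and 1 of 24 pair differences were flagged.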

How the results depend on the processing

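The counts of members at 1, 10 and 100 TPM, the number of pairs with the same direction in every library and the absence of member calls in the spread test stayed within the limits set for them under the alternatives run. Of the 24 pairs, 1 reversed: Cd3e minus Cd3d went from -0.42 to 0.089 with the longest annotated transcript and to 0.89 with the longest coding transcript, the latter chosen after seeing the data. The count of variable genes among all tested was 36, and became 94 with no filter on low counts, where 20704 genes were tested, and 17 without the robust prior (cause was not tested). It was 15 to 37 with each replicate left out, and 15 without replicate 4. Members called were 0 under each, and 3 to 5 had an unadjusted p under 0.05. Member levels lay at 0.958 to 1.04 times their means with each replicate left out. The longest annotated transcript moved 35 of 38 levels by more than 1 SD, by 0.345 to 2.52 times, and the coding length moved all 38, by 0.682 to 2.58 times. For Ubash3a, Grap2, Cd5, Cd6 and Malt1 the longest annotated transcript exceeds the counted exons, so their levels by it are understated. Coding length was to hand for 35 members, and for Grap2, Malt1 and Cblb the deposited length was used. Levels by either length were rescaled to an equal total, so members of unchanged length moved as well. Trac went from 1289 to 879 TPM by coding length although its length stayed at 935 bases. Removing shared words moved 5, mainly Trbc1 and Trbc2. Rescaling without mitochondrial and ribosomal genes raised each member by 1.20 times, a shift of 0.26 in the median log2 level that all genes shared. Depth limits Syk, Blnk, Themis2 and the gamma constant genes, which lie near the floor of 3 fragments. No comparison between groups, paired or not, was possible because there was 1 group.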
